A study of Anas platyrhynchos with 18 samples.

Results

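miR-22 is a conserved vertebrate miRNA whose hairpin gives 2 mature arms, miR-22-3p and miR-22-5p. It was chosen by the CPM of miR-22-3p over the stages, which was higher after hatch, and its members were the rows of the count table that carry the name miR-22, which are these 2 arms among 353 mature miRNAs with a count. Both arms were listed in every library. Because the level over the stages chose this miRNA, all levels and changes of either arm are given as a description, with no test. Small RNA was sequenced from skin of Pekin ducks taken over the thoracic vertebrae at 6 stages. Embryos were sampled at embryonic day 11 (11EM), day 15 (15EM) and day 20 (20EM), and birds at 1 day (1DB), 4 weeks (4WK) and 10 weeks (10WK) after hatch. All stages came from the same breed, with no treatment, and the tissue is whole skin, not isolated follicles. The 17 libraries used here are 3 per stage except 20EM, where replicate 2 was not analysed here (n = 2). The methods describe several skin samples per stage but do not state how they were divided over the libraries, so the spread between libraries may be partly technical.

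A miRNA is cut from a hairpin as a duplex of 2 arms, and usually 1 of them is kept in an Argonaute protein. The seed, bases 2 to 8 of the mature arm, pairs with messenger RNAs, which are then translated less or degraded. In mammals miR-22 is abundant in heart and skeletal muscle and slows the growth of many cell types. In the mouse hair follicle it promotes the passage from growth to regression and represses transcription factors of the keratin programme, among them Dlx3 and Foxn1. Its role in feather follicles is not covered by these counts.

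The 2 arms are shown because the counts are of reads matched to them, with the seed in capitals. The sequences are the chicken miRBase entries listed with the study, since reads were matched to chicken and not to duck miRNAs.
miR-22-3p: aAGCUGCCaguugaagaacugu
miR-22-5p: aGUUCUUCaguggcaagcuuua

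Both arms are 22 nt long, with a GC content of 45.45% for miR-22-3p and 40.91% for miR-22-5p. A target that pairs with the whole seed of miR-22-3p reads GGCAGCU. Of the 328 miRNAs with both a count and a sequence, none other than miR-22-3p carried its seed, and none other carried its bases 2 to 7. The same held for miR-22-5p, although the letters of its seed occur elsewhere inside miR-146a-3p and miR-2131-3p. The nearest other sequence was 7 edits from miR-22-3p (miR-17-3p) and 8 edits from miR-22-5p (miR-103-2-5p), out of 327 compared. No other listed sequence is therefore a near copy with which counts of either arm could be shared. Folded together by RNAduplex, the arms gave 19 base pairs, of which 8 were G-C, 10 A-U and 1 G-U, with a predicted energy of -24.6 kcal/mol. All 7 seed bases of miR-22-3p were paired in that duplex.

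Depth was between 3072942 and 15839714 miRNA counts per library, with a median of 7606084. Levels are given as CPM, counts per 1000000 miRNA counts of the library. A library floor of 3 counts corresponded to 0.189 to 0.976 CPM, far below both arms. The interval given for a single library is the 95% Wilson interval and covers counting error only. The clean reads (trimmed reads that passed the quality filter) were under 96% of the raw reads in 12 libraries and over 98% in 5, a split for which neither the labels nor the file headers name a sequencing run. The 5 are replicate 3 of 11EM, replicates 1 and 2 of 15EM, replicate 3 of 20EM and replicate 1 of 4WK. miRNA counts made up 54.2% ± 12.6 (SD, n = 8) of the clean reads before hatch and 20.4% ± 6.61 (SD, n = 9) after hatch. Replicate 3 of 20EM stood apart from replicate 1 of that stage in this share, with 24.8% against 60.3%.

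miR-22-3p, the arm that is mostly kept, took 3.33% ± 0.237 (SD, n = 8) of all miRNA counts in the embryo and 9.39% ± 1.15 (SD, n = 6) at 4WK and 10WK. At 11EM the 3 libraries had 35059.7, 31203 and 32065 CPM. At 15EM they had 31534, 31337 and 32130 CPM. At 20EM the 2 libraries had 36412 and 36824 CPM. The embryonic libraries thus lay close together, and those of 11EM and 15EM overlapped. At 1DB the values were 42764, 48187 and 42985 CPM, all above every embryonic library. At 4WK they were 83766, 101802 and 103964 CPM. At 10WK they were 106134, 79103 and 88714 CPM, overlapping with 4WK and with no library of 4WK or 10WK as low as 1DB.

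The stage means of miR-22-3p were 32776 ± 2024 CPM (SD, n = 3) at 11EM, 31667 ± 413 (SD, n = 3) at 15EM and 36618 ± 291 (SD, n = 2) at 20EM. After hatch, 1DB had a mean of 44645 ± 3069 CPM (SD, n = 3), 4WK one of 96511 ± 11090.3 (SD, n = 3) and 10WK one of 91317 ± 13702 (SD, n = 3). In order from the lowest mean, the stages were 15EM, 11EM, 20EM, 1DB, 10WK and 4WK. Of the neighbours in that order, 2 pairs overlapped, 15EM with 11EM and 10WK with 4WK, while 20EM, 1DB and 10WK each lay wholly above the stage before them in the order.

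**Figure D1:**
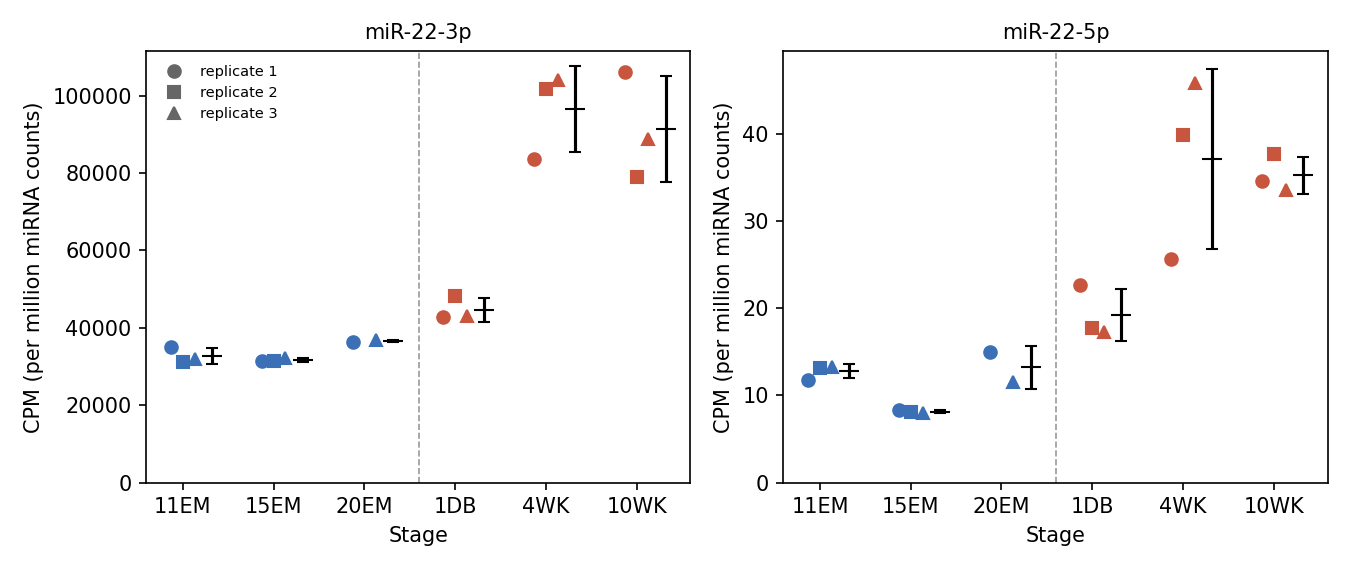
CPM (counts per 1000000 miRNA counts) of miR-22-3p (left) and miR-22-5p (right) by stage, with 1 point per library shaped by replicate number, blue before and red after hatch, and bars for the mean and SD. All 9 libraries after hatch lie above all 8 before hatch for both arms on this scale, which was so for 24 of the 252 miRNAs tested (9.52%). Per clean read the groups overlap and the mean of miR-22-3p after hatch is 0.823 of that before.

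Averaged over libraries, miR-22-3p was 33320 ± 2374 CPM (SD, n = 8) before hatch and 77491 ± 26305 CPM (SD, n = 9) after hatch, a fold of 2.33 between the means. Each library after hatch was above each library before it, which was so for 24 of the 252 miRNAs tested (9.52%). In the fit over all miRNAs (edgeR, TMM scaling), the log2 fold change across hatch, with stages weighted equally, was 1.32 (SE 0.08). Counted from the largest increase, it ranked 44 of 252, beside a median of -0.16 over all miRNAs. A miRNA was called where it changed at least 2-fold with an adjusted p under 0.05, which held for 21% of all miRNAs in the higher direction and 29.4% in the lower. Of all miRNAs, 21% were wholly lower after hatch in CPM. Within the 12 libraries under 96% clean reads, the means were 33701 and 76707 CPM, a fold of 2.28.

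In CPM the largest step between successive stages lay after hatch, between 1DB and 4WK. Per clean read that step was 0.22 on the log2 scale, and the step from 20EM to 1DB was -0.35. On the log2 scale of the fit, miR-22-3p changed by -0.13 (SE 0.13) from 11EM to 15EM and by 0.23 (SE 0.14) from 15EM to 20EM. The change was 0.53 (SE 0.14) from 20EM to 1DB, 0.99 (SE 0.13) from 1DB to 4WK and 0.05 (SE 0.13) from 4WK to 10WK. In plain CPM the step from 20EM to 1DB was a fold of 1.22 and that from 1DB to 4WK a fold of 2.16. Between 4WK and 10WK the mean changed by a fold of 0.946, less than the spread between the libraries of either stage, and its sign differed from that of the fit. A lack of overlap in a single step was common among all miRNAs, 18.3% of which were wholly higher at 20EM than at 15EM, 23.8% at 1DB than at 20EM and 29% at 4WK than at 1DB. Both arms of miR-22 were wholly higher in each of these 3 steps, and the share of all miRNAs that were so in all 3 together was not counted. In the fit the direction of 11EM to 15EM was not stable, since leaving out single replicates moved it between -0.19 and 0.09, with positive values without any 1 of the 3 libraries of 11EM. Each such fit also set the filter and TMM scaling anew, so these shifts do not come from the miR-22-3p counts alone.

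**Figure D2:**
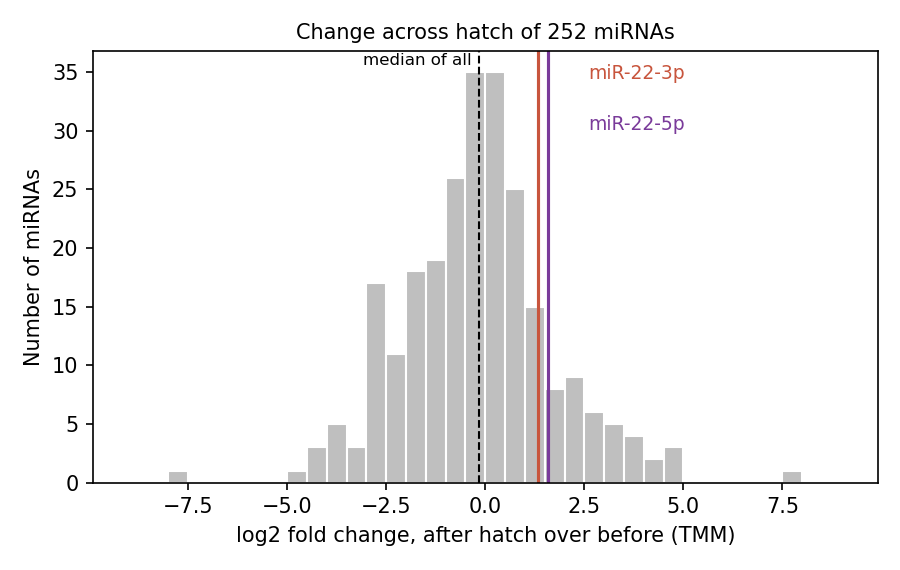
Histogram of the log2 fold change after over before hatch (TMM scaling) of 252 miRNAs, with lines at miR-22-3p (1.32), miR-22-5p (1.59) and the median of all miRNAs (dashed, -0.16). Both arms lie in the upper part of the distribution, at ranks 44 and 37. Per clean read the values are -0.27 (SE 0.20) and -0.06 (SE 0.25).

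The direction across hatch depends on what a library is scaled to. Counted per 1000000 clean reads, miR-22-3p was 17875 ± 3831 (SD, n = 8) before and 14708 ± 4243 (SD, n = 9) after hatch, a fold of 0.823. From 11EM to 20EM the stage means were 18101, 19206 and 15542. From 1DB to 10WK they were 12167, 14162 and 17795. The groups overlapped on this scale, with values from 9134 to 21950 before and from 8991 to 24461 after hatch. The lowest embryonic value was replicate 3 of 20EM, whose share of miRNA counts was also the lowest, and without it the mean before hatch was 19124 ± 1601 (SD, n = 7). Fitted per clean read, the log2 change of miR-22-3p across hatch was -0.27 (SE 0.20), and the median of all miRNAs was -1.78. Of all 252 miRNAs, 1.98% were wholly higher and 30.6% wholly lower after hatch per clean read.

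A change of scaling moves all miRNAs by about the same amount, so the distance of miR-22-3p from the median of all miRNAs keeps its size by construction, at 1.48 on the log2 scale with TMM and 1.51 per clean read. In bulk skin, fewer cells of a type and less RNA per cell cannot be told apart.

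**Figure D3:**
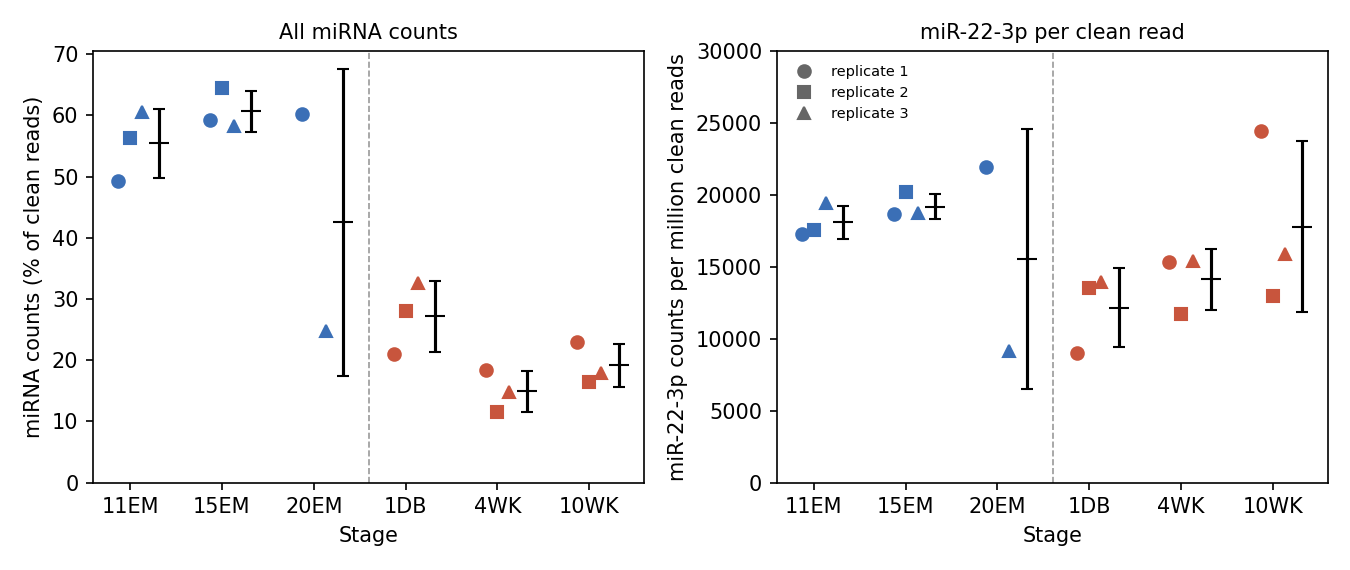
Share of clean reads counted on miRNAs in percent (left) and miR-22-3p counts per 1000000 clean reads (right) by stage, 1 point per library shaped by replicate number, bars for mean and SD, blue before and red after hatch. The share is 54.2% before and 20.4% after hatch on average, and miR-22-3p per clean read overlaps between the groups, with 1DB lowest by mean at 12167.

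Among all miRNAs, miR-22-3p moved up the order of abundance. By mean CPM its ranks from 11EM to 20EM were 6, 9 and 8, and from 1DB to 10WK they were 6, 3 and 4. The rank within a library does not depend on how it is scaled. Its highest place was 2, in replicate 2 of 4WK, and its lowest was 10, in replicate 3 of 20EM. Its neighbours changed with the stage. At 11EM it stood below miR-26a-5p (63790 CPM) and above miR-30a-5p (28984 CPM). At 15EM it was next to miR-148a-3p (31791 CPM) above and let-7f-5p (26677 CPM) below, and at 20EM between miR-148a-3p (38074 CPM) and miR-92-3p (33061 CPM). At 1DB it lay between miR-27b-3p (66771 CPM) and miR-205a (32964 CPM), an epithelial miRNA. At 4WK miR-10a-5p (108345 CPM) was next above it, with miR-26a-5p (80779 CPM) next below, and at 10WK it lay between miR-26a-5p (102829 CPM) and miR-27b-3p (67285 CPM). Of the 20 miRNAs with the highest mean CPM, miR-22-3p was the only one with each library after hatch above each library before hatch in CPM, while per clean read its groups overlapped. It was chosen for being higher after hatch, and 9.52% of all 252 miRNAs met the same condition in CPM. miR-21-5p differed by a similar factor between the means (13245 and 30967 CPM), with overlapping libraries.

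miR-22-5p, the arm that is mostly discarded, was counted in every library but with few reads, between 46 and 219 per library. At 11EM it was 11.8, 13.2 and 13.2 CPM, and at 15EM 8.34, 8.11 and 7.995 CPM. At 20EM it was 15.0 and 11.5 CPM. At 1DB the libraries had 22.6, 17.7 and 17.3 CPM, all above the embryonic ones. At 4WK they had 25.7, 39.8 and 45.8 CPM and at 10WK 34.6, 37.6 and 33.5 CPM. The low library of 4WK was replicate 1, the only one of that stage over 98% clean reads, which was also the lowest of its stage for miR-22-3p.

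The mean of miR-22-5p was 11.1 ± 2.70 CPM (SD, n = 8) before and 30.5 ± 10.13 CPM (SD, n = 9) after hatch, a fold of 2.74. In CPM each library after hatch was above each before it for this arm too, as for 9.52% of the 252 miRNAs. Its log2 fold change across hatch was 1.59 (SE 0.14), at rank 37 of 252. Per clean read the fold between the means was 0.956. The fitted log2 change on that scale was -0.06 (SE 0.25), smaller in size than its SE, so no direction was resolved. Its steps were -0.73 (SE 0.22) from 11EM to 15EM, 0.72 (SE 0.24) from 15EM to 20EM, 0.78 (SE 0.25) from 20EM to 1DB, 0.83 (SE 0.22) from 1DB to 4WK and 0.06 (SE 0.22) from 4WK to 10WK. Unlike miR-22-3p, this arm was wholly lower at 15EM than at 11EM, as were 25% of the 252 miRNAs in CPM. Within stages the pooled SD of log2 CPM was 0.13 for miR-22-3p and 0.23 for miR-22-5p, compared with a median of 0.29 over 182 miRNAs with a mean of at least 10 CPM.

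The ratio of the arms does not depend on how a library is scaled. It belongs to the values by which miR-22 was chosen, so it is given as a description too. miR-22-3p outnumbered miR-22-5p by 1891-fold in replicate 1 of 1DB, the lowest ratio, and by 4019-fold in replicate 3 of 15EM, the highest. Expressed as a share, miR-22-5p was between 0.0249% (95% interval 0.0205% to 0.0302%) and 0.0528% (0.0448% to 0.0624%) of the counts of both arms in these libraries. The ratio of the mean CPM of the arms over all libraries was 2650-fold, at rank 8 from the most unequal of 95 hairpins with both arms counted, for which the median was 33.1-fold.

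On the log2 scale, the arm ratio was 11.33 ± 0.18 (SD, n = 3) at 11EM, 11.92 ± 0.04 (SD, n = 3) at 15EM and 11.45 ± 0.28 (SD, n = 2) at 20EM. After hatch it was 11.19 ± 0.27 (SD, n = 3) at 1DB, 11.38 ± 0.27 (SD, n = 3) at 4WK and 11.33 ± 0.28 (SD, n = 3) at 10WK. The 3 libraries of 15EM, at 11.88, 11.92 and 11.97, were above all others. The libraries of 11EM overlapped with those of 20EM, and those of the 3 stages after hatch with each other.

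**Figure D4:**
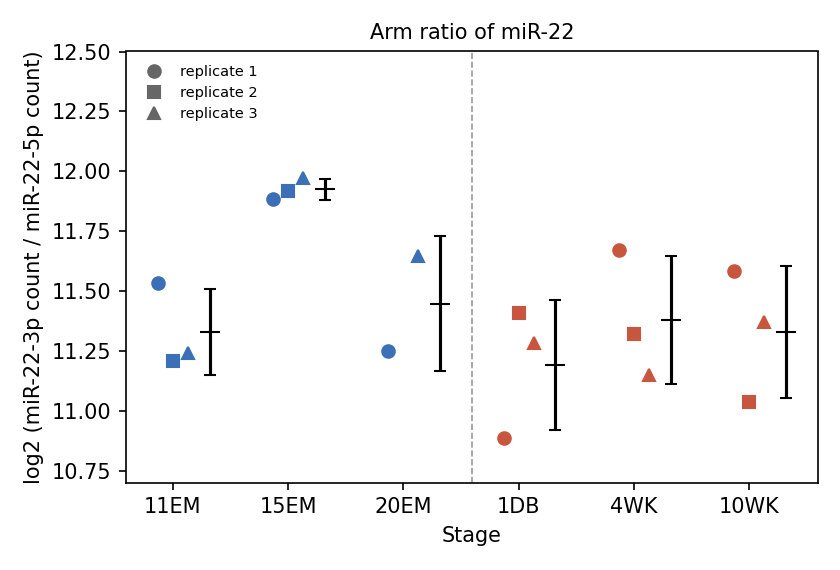
log2 of the miR-22-3p count over the miR-22-5p count by stage, 1 point per library shaped by replicate number, bars for the mean and SD, blue before and red after hatch; the vertical axis does not start at 0. The 3 libraries of 15EM lie between 11.88 and 11.97, above all others, and the stages after hatch overlap.

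Across hatch the mean log2 ratio was 11.58 ± 0.32 (SD, n = 8) before and 11.30 ± 0.25 (SD, n = 9) after, with overlapping libraries. The difference of -0.28 was small beside other hairpins, at rank 54 of 66 by size among those with both arms counted in every library, where the median size was 0.84. Both arms of miR-22 thus differed across hatch by similar factors.

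The miRNAs whose course was most like that of miR-22-3p were named by the correlation of log2 CPM (TMM) over 17 libraries, among 181 miRNAs with a mean of at least 10 CPM. Depth differed with the stage, from 12834234 to 15839714 counts at 11EM and from 3072942 to 5668932 at 10WK. Depth and stage thus run together in these correlations, which are given as a description. The highest were miR-22-5p (r = 0.95), miR-15a (r = 0.95), miR-29a-3p (r = 0.95), miR-29b-3p (r = 0.94) and miR-29c-3p (r = 0.94). The leukocyte miRNAs miR-142-5p and miR-223 followed closely (r = 0.93 for each). The order depended on the measure, since by Spearman correlation miR-142-5p ranked 1 and miR-15a 22. In mammals miR-15a restrains the cell cycle and the miR-29 family represses collagens and other matrix proteins. The lowest were miR-130a-3p (r = -0.97), miR-130b-3p (r = -0.96) and miR-1677-3p (r = -0.96). Their mature sequences are shown with the seed in capitals, to set them beside miR-22-3p.
miR-15a: uAGCAGCAcauaaugguuugu
miR-29a-3p: uAGCACCAuuugaaaucgguu
miR-29b-3p: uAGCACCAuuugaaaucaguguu
miR-29c-3p: uAGCACCAuuugaaaucggu
miR-130a-3p: cAGUGCAAuauuaaaagggcau
miR-130b-3p: cAGUGCAAuaaugaaagggcgu
miR-1677-3p: uGACUUCAguaggagcaggauu

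None of these shares the seed of either arm of miR-22. The 3 members of the miR-29 family share a seed, and miR-29c-3p is the first 20 of the 21 bases of miR-29a-3p, so the split of reads between these members is uncertain. Their courses differed in size from that of miR-22-3p. miR-15a was 753 CPM at 11EM and 1310 at 10WK, a smaller change than that of miR-22-3p. miR-29a-3p went from 4.72 CPM at 11EM through 79.8 at 1DB to 533 at 10WK, already higher at each embryonic stage than at the one before. miR-29b-3p was 0.460 CPM at 11EM and 73.5 at 10WK, and miR-29c-3p 2.68 and 195 CPM. At 11EM the floor of 3 counts was 0.189 to 0.234 CPM, so miR-29b-3p was near it there and the size of its change is uncertain. Of the miRNAs with the opposite course, miR-130b-3p was 9421 CPM at 11EM and 1267 at 10WK, miR-130a-3p 2357 and 511 CPM, and miR-1677-3p 93.5 and 5.18 CPM.

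**Figure D5:**
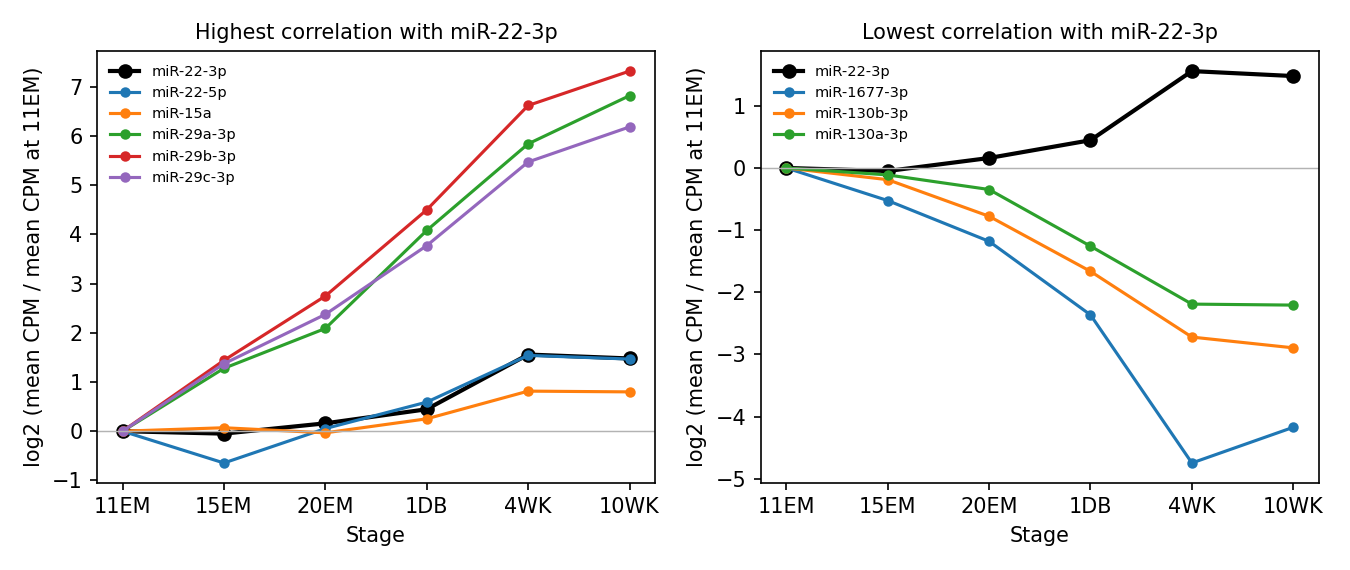
log2 of the mean CPM of each stage over that at 11EM for miR-22-3p (black) with the 5 miRNAs of highest correlation (left) and the 3 of lowest correlation (right), with 1 line per miRNA. miR-22-5p and miR-22-3p nearly coincide from 4WK on. The 3 miR-29 members are further above their 11EM level and from an earlier stage, where the 11EM base of miR-29b-3p (0.460 CPM) is near the floor of 3 counts. The 3 on the right lie below theirs in CPM. Per clean read the correlations of the miR-29 members with miR-22-3p are slightly negative and among the lowest. Those of the 3 on the right are positive on that scale, as for most miRNAs.

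These correlations came mainly from differences between stages and depended on the scale. Within stages, after removing the stage means, r with miR-22-3p was 0.24 for miR-22-5p, 0.16 for miR-15a, 0.36 for miR-29a-3p, 0.22 for miR-29b-3p and 0.39 for miR-29c-3p. Per clean read, r was 0.70 for miR-22-5p and 0.81 for miR-15a, but -0.11 for miR-29a-3p, -0.17 for miR-29b-3p and -0.10 for miR-29c-3p. The miRNAs of lowest r changed sign on that scale, to 0.42 for miR-130a-3p, 0.40 for miR-130b-3p and 0.32 for miR-1677-3p. A positive r was general there, since let-7b, at rank 172 of 181 from the highest, still had 0.0036. By the same ranking miR-29a-3p was at 177, miR-29b-3p at 179 and miR-29c-3p at 175, among the lowest.

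A list of 8 miRNAs known from mouse hair follicles and epidermis was set beside miR-22, and it was chosen with results of these data known. All 8 were tested, and 3 were called higher after hatch, 0 lower and 5 neither, beside 21% higher and 29.4% lower among all 252 miRNAs. The median log2 fold change of the list was 0.65, against -0.16 over all miRNAs. The 3 called higher by edgeR's quasi-likelihood test were the following. miR-24-3p, which promotes keratinocyte differentiation, went from 682 to 2152 CPM (log2 fold change 1.98, SE 0.10, adjusted p = 1.9e-10). Stage by stage it was 267, 875 and 1016 CPM from 11EM to 20EM, and 1638, 2371 and 2446 CPM from 1DB to 10WK. It was thus already higher at each embryonic stage than at the one before. miR-203a, which represses p63 as keratinocytes leave the basal layer, went from 15089 to 22318 CPM (log2 fold change 1.71, SE 0.21, adjusted p = 3.4e-06). Between those plain means the log2 difference was 0.56, below the fold threshold, while the fit weights the stages equally. Its stage means were 489, 19557 and 30285 CPM from 11EM to 20EM, and 8008, 33203 and 25744 CPM from 1DB to 10WK. Of the embryonic stages only 11EM was below every stage after hatch, so the embryonic levels overlapped with those after hatch. miR-21-5p, which is held down by BMP4 in mouse keratinocytes, went from 13245 to 30967 CPM (log2 fold change 1.25, SE 0.10, adjusted p = 2.1e-08). Its stage means were 14529 CPM at 20EM, 14556 at 1DB and 51876 at 4WK.

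The other 5 did not pass the fold threshold. Their log2 fold changes were 0.68 for miR-31-5p, a miRNA of the growing follicle, 0.62 for miR-125b-5p, which holds skin stem cells undifferentiated, 0.15 for miR-205a, 0.07 for miR-200b-3p, which keeps epithelial cells from a mesenchymal state, and -0.45 for miR-214, which represses β-catenin. By stage mean, miR-31-5p was 1322 CPM at 20EM, 201 at 1DB and 3871 at 4WK. Per clean read, none of the list was called higher and 3 were called lower (miR-214 at -2.07, miR-205a at -1.46 and miR-200b-3p at -1.50). Among all 252 miRNAs, 18 were called higher and 180 lower on that scale, with a median log2 fold change of -1.78. On that scale the log2 fold change was 0.38 (SE 0.21) for miR-24-3p, 0.19 (SE 0.22) for miR-203a and -0.37 (SE 0.18) for miR-21-5p. It was -0.94 (SE 0.24) for miR-31-5p and -0.99 (SE 0.22) for miR-125b-5p, both short of the fold threshold. The sign thus turned for miR-21-5p, miR-31-5p, miR-125b-5p, miR-205a and miR-200b-3p.

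Markers of some other cell types in whole skin also differed across hatch in CPM, and their part in the level of miR-22 was not tested. The sums below were not computed per clean read, where 180 of the 252 miRNAs were called lower, so any separation holds for CPM alone. Among all 252 miRNAs, 21% were called higher after hatch and 29.4% lower. Summed over the marker lists, 7 muscle miRNAs ranged from 459 to 14085 CPM before and from 5233 to 15076 CPM after hatch. Of these, 3 were called higher and 1 lower, and miR-206 was at 0 in at least 1 library. The 3 erythrocyte miRNAs ranged from 1830 to 4289 CPM before and from 9382 to 21235 CPM after. On the CPM scale these sums did not overlap, and 9.52% of all single miRNAs were wholly higher after hatch. miR-451 went from 1863 CPM at 11EM to 17483 at 10WK, whereas miR-144-3p went from 548 to 330 CPM. Only 1 of the 3 was called higher, and miR-144-5p was at 0 in at least 1 library. Of 4 leukocyte miRNAs, 3 were tested and all 3 were called higher, with sums of 448 to 742 CPM before and 1014 to 9308 CPM after, and miR-155 was at 0 in at least 1 library. The 2 arms of endothelial miR-126 ranged from 11290 to 24639 CPM before and from 19487 to 31093 CPM after, with neither called. The 5 miRNAs of keratinocytes and other epithelia, expected in skin, were present in each library, at 21379 to 115088 CPM before and 35717 to 85769 CPM after, with 1 called higher and 1 lower. The 3 mesenchymal miRNAs ranged from 20754 to 45312 CPM before and from 12628 to 22887 CPM after, with none called. By stage mean, the muscle sum was 10847, 1641 and 4237 CPM from 11EM to 20EM, and 9914, 7688 and 13958 CPM from 1DB to 10WK.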

How the data were processed

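Small RNA reads of duck skin were trimmed and filtered by the authors with the FASTX-Toolkit, reads of other noncoding RNA were removed in CLC Genomics Workbench, and the rest were matched to chicken miRNAs of miRBase. The deposited values are raw counts per mature arm of each hairpin, without normalization, and were summed per miRNA name. How reads with mismatches to the mature arms were treated is not given in the sources used here. CPM are relative to the summed miRNA counts, so a rise of one miRNA lowers the others. Clean-read totals came from the read table of the study. Of 18 labelled samples, 17 were used.

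Stages were fitted together in edgeR 4.0.16 (R 4.3.3, quasi-likelihood, TMM) on the 252 miRNAs that reached 1 CPM in 2 or more libraries, with Benjamini-Hochberg adjustment over all. Before and after hatch are equally weighted means of 3 stages. Alternatives used DESeq2 1.42.0, limma 3.58.1 (0 set to 0.01), other scalings and filters, the share of clean reads (under 96% or over 98%) or the replicate as terms, and leaving out each replicate. Exact permutation tests of the arm ratio were run as planned. The ratio belongs to the values that chose miR-22, so nothing rests on these tests. They used Python 3.11.15, numpy 2.4.6, pandas 2.3.3 and scipy 1.17.1, the duplex used ViennaRNA 2.7.2 and the figures matplotlib 3.10.9. On simulated counts with 4-fold changes set, edgeR called 191 of 195 changed miRNAs among 244. In a separate simulation with no change set, it called 0. The set change is larger than that of miR-22 and covers most miRNAs, so it does not measure how well a change of that size is found. Named miRNAs are both arms of miR-22, the 5 most and 3 least correlated with miR-22-3p, the hair follicle list and the neighbours by abundance. The members and lists were chosen with earlier results of these data known. A single value that is high in a group was not tested for, since no stage has 4 libraries.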

Additional observations from a re-analysis of the deposited data

How the results depend on the processing

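Outside the leaving out of replicates, 107 of 140 alternative values moved by less than the spread between libraries, or kept their call or count within 1.5 times, and of those that left out a replicate 136 of 141 did. This count includes changes of sign near 0, as for 4WK to 10WK, where leaving out a replicate gave -0.050 to 0.16 for miR-22-3p and -0.15 to 0.15 for miR-22-5p. Across hatch, miR-22-3p was 1.12 on the log2 scale both with limma and with library totals only, against 1.32. Scaled by clean reads its sign turned, to -0.27 (SE 0.20), with libraries before and after hatch overlapping. It was -0.43 (SE 0.21) with libraries under 96% clean reads alone and -0.44 (SE 0.16) without 20EM replicate 3. For miR-22-5p these values were -0.060 (SE 0.25), -0.17 (SE 0.27) and -0.26 (SE 0.18). The 2 latter settings and the hair follicle list per clean read were added after the data were seen. With clean reads 198 miRNAs were called, 18 of them higher, and the share of higher among the called was 9.09% against 41.7% with TMM; of the hair follicle list 0 were called higher and 3 lower.

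The steps moved more. From 11EM to 15EM, miR-22-3p was 0.11 without a filter, 0.018 with at least 10 CPM in 3 libraries and 0.086 per clean read, and miR-22-5p was -0.49 without a filter. From 15EM to 20EM, miR-22-3p was 0.46 with the stricter filter and -0.31 per clean read, and miR-22-5p 0.27 per clean read. From 20EM to 1DB, miR-22-3p was 0.28 with limma, 0.29 with library totals, 0.39 without a filter and -0.35 per clean read, and miR-22-5p was 0.54, 0.53 and, per clean read, -0.22. From 1DB to 4WK, miR-22-3p was 0.22 and miR-22-5p 0.065 per clean read. From 4WK to 10WK, miR-22-3p was -0.084 with limma, -0.080 with library totals and 0.33 per clean read, and miR-22-5p 0.33 per clean read. Apart from the scale itself, the cause was not tested.

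Leaving out each replicate gave 1.29 to 1.43 for miR-22-3p and 1.55 to 1.72 for miR-22-5p across hatch. For 11EM to 15EM the range was -0.19 to 0.087 for miR-22-3p and -0.77 to -0.49 for miR-22-5p. The planned exact permutation tests of the arm ratio between stages are not independent of the choice of miR-22, and nothing rests on them. These exact permutation tests gave p = 0.05 (adjusted p = 0.1) before hatch and p = 0.679 (adjusted p = 0.679) after. Leaving out a replicate gave 0.0143 to 0.0952 before hatch and 0.464 to 0.939 after. The lowest, an adjusted p of 0.0286 without 20EM replicate 1, leaves 20EM with 1 library, so that the other stages alone supply the spread. Same replicate numbers showed no pairing on average, with a mean correlation of their deviations of -0.022 over 40 pairs, from -0.38 to 0.72. Over 80 pairs of different numbers the mean was 0.0097. These means cannot show that no libraries were paired. With the replicate block miR-22-3p was 1.32 and miR-22-5p 1.58 across hatch, with 122 miRNAs called. Of the 5 miRNAs most like miR-22-3p, 1 was among the top 5 by Spearman correlation. The share of exact matches was not run, because the counts do not separate them. The few counts of miR-22-5p, from 46 per library, limit the precision of its steps.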
